A study of Mus musculus with 30 samples.

Results

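The 44 genes described here encode proteins of the centromere, the kinetochore and the spindle checkpoint. They were taken as a list of names with no threshold on their values, though earlier results of these data were known when the list was drawn up, and were found by matching the Ensembl gene IDs of the deposited count table to mouse symbols. All 44 were found among its 78334 gene IDs. All 44 also passed the filter on low counts in both sequencing runs, in which 15350 genes (run 2) and 15103 genes (run 3) were tested.

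The study sequenced total RNA from 30 libraries of cultured mouse aortic smooth muscle cells, in 9 groups, after lowering or raising the long noncoding RNA CASC15. CASC15 was lowered with GapmeRs, antisense oligonucleotides that make RNase H cut the RNA they pair with, and was raised from a transfected plasmid. Serum was withheld from all cells for 48 h, transfection took 24 h or more, and a treatment, where given, lasted 24 h. Run 2 held untreated cells only: 2 libraries with a control GapmeR (the antisense control), 2 labelled as total CASC15 knockdown, 3 that received a control plasmid and 3 overexpressing total CASC15. Run 3 held 4 libraries in each of 5 groups. These were control GapmeR cells left untreated, given 10 ng/ml angiotensin II or given 10 to 30 ng/ml PDGF-BB, a growth factor, and cells with a knockdown of long CASC15, untreated or with angiotensin II. The labels name a batch for every library. Batches P16 to P19 each hold 1 library of every run 3 group, P17 and P18 hold 1 of every run 2 group, and P19 holds the remaining plasmid libraries of run 2 and no GapmeR library of that run. The labels do not say what P16 to P19 are, what sets long CASC15 apart from total CASC15, or whether the libraries of 1 group came from separate cultures or animals. The p-values therefore measure the spread between these libraries, which may be technical.

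At every centromere, nucleosomes that carry the histone variant Cenpa mark the site where the kinetochore is built. The chaperone Hjurp and the Mis18 proteins place Cenpa there, the inner network (CCAN) reads it, and the outer KMN network of Knl1, Mis12 and Ndc80 complexes holds the microtubules. Kinetochores without microtubules switch on the spindle checkpoint, which keeps the anaphase-promoting complex off until all chromosomes are attached, while Aurora B and its partners release wrong attachments and the shugoshins protect cohesion between sister centromeres. Many of these genes are transcribed late in the cell cycle, and smooth muscle cells of a healthy artery rarely divide, whereas PDGF-BB is a classic mitogen for them. In bulk RNA, fewer dividing cells and less RNA per cell cannot be told apart.

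Late cell cycle genes are often read from a short element called the cell cycle gene homology region (CHR; TTTGAA or TTCGAA) together with CCAAT boxes, and earlier ones from E2F sites (GGCGGGAA or GGCGCGAA). RefSeq promoters of 300 bases (250 before and 50 after the transcription start, build GRCm38.p6) were at hand for 38 of the 44 members, with 43 promoters between them. The 6 promoters shown belong to genes on which the results turn, and the capitals mark every match to these motifs on either strand.
Cenpa, chr5:30666636-30666935, plus strand: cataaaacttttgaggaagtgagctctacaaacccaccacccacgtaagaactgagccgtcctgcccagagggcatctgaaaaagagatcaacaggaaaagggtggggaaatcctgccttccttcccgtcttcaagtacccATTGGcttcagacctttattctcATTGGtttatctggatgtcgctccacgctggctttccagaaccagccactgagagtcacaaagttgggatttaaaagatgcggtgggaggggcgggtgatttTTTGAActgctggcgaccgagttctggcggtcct
Hjurp, chr1:88277530-88277829, minus strand: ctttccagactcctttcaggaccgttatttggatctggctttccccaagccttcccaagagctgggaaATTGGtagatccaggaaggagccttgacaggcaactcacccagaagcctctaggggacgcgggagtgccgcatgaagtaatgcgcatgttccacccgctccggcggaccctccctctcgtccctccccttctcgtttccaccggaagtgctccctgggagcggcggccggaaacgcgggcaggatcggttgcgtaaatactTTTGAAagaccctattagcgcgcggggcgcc
Cenpf, chr1:189688037-189688336, minus strand: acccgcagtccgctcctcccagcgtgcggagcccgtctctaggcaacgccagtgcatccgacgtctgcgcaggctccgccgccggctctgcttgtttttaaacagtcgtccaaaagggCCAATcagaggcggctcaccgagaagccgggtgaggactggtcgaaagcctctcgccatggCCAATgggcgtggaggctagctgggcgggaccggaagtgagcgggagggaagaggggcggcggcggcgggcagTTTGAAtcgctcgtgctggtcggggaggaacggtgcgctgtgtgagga
Ttk, chr9:83834439-83834738, plus strand: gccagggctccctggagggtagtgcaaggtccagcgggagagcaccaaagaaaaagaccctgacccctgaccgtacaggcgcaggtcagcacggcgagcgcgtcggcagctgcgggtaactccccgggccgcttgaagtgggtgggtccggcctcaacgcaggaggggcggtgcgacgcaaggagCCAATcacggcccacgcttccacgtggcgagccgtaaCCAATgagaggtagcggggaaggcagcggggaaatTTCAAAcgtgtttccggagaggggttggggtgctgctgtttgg
Bub1b, chr2:118597961-118598260, plus strand: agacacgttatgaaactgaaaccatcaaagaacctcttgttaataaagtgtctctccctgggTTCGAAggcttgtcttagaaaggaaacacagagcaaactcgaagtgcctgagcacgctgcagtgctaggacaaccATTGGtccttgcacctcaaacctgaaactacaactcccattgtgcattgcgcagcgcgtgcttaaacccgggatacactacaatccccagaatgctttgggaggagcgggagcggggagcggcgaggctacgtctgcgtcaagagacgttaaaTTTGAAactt
Zw10, chr9:49055331-49055630, plus strand: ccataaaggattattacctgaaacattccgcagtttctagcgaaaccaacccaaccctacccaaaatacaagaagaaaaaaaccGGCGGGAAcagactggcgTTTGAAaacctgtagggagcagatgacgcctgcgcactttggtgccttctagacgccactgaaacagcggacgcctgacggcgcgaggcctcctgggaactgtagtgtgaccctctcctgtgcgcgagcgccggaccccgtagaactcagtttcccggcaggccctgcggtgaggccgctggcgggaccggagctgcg

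Counting each motif's leftmost base from the transcription start, the promoters of Cenpa, Cenpf and Ttk each held a pair of CCAAT boxes upstream (at -109 and -86, at -132 and -71, and at -65 and -28) and TTTGAA just after the start (at 17, 3 and 8). Hjurp held 1 CCAAT box at -182 and TTTGAA at 20. Zw10 held GGCGGGAA at -166 and TTTGAA at -148, with no CCAAT box in the window. Over all 43 member promoters, 22 (51.2%) held TTTGAA or TTCGAA, against 19.2% of the 32851 promoters in the table. CCAAT was found in 29 (67.4%, against 37.4%), a CHR together with CCAAT in 17 (39.5%, against 7.52%), GGCGGGAA in 4 (9.3%, against 2.19%) and GGCGCGAA in 0 (against 0.524%). Among the promoters of members with a PDGF-BB log2 fold change of 2 or more, 50.0% held a CHR and 73.3% a CCAAT box, and among those of the other members 53.8% and 53.8%. Both motifs were thus found in promoters of members with large and with small responses. These are matches of letters and not measured binding sites.

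Total counts per library ran from 18007199 to 21881959 in run 2 and from 15771490 to 30362047 in run 3. The knockdown target, read as the gene 2610307P16Rik (an assignment that no file here states), stood at 6.01, 5.20, 4.94 and 5.92 CPM (counts scaled to library size) in the untreated controls of run 3 and at 2.15, 2.78, 3.48 and 3.08 in the long CASC15 knockdown (log2 fold change -0.95 (SE 0.19), edgeR adjusted p = 0.000832). Under angiotensin II its log2 fold change in the knockdown was -0.79 (SE 0.19). It also fell with PDGF-BB in control cells, where the members rose, to 4.82, 3.34, 2.95 and 3.31 CPM (log2 fold change -0.62 (SE 0.18), edgeR adjusted p = 0.0101). In run 2 it stood at 7.66 and 6.37 CPM in the GapmeR controls and at 9.73 and 8.29 in the libraries labelled total CASC15 knockdown (log2 fold change 0.36, edgeR adjusted p = 0.739), so that these are named by their label throughout. With overexpression its range went from 4.03 to 8.69 CPM in the plasmid controls up to values of 604 to 916 CPM. Of the defining smooth muscle markers, Cnn1 stayed at 3 counts or fewer in 7 of 9 groups, and the 8 markers together summed to 175 to 536 CPM, against 2606 to 4216 CPM for 5 fibroblast markers. Endothelial markers summed to at most 9.99 CPM.

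Within untreated run 3 controls, the members differed widely in level per kb of annotated exon sequence. This length joins all annotated exons of a gene. It can exceed that of the RNA in the cells, and the order below depends on it. Zwint, a partner of Knl1, was the most abundant at 23.3 ± 2.67 CPM per kb (SD, n = 4), followed by the SKA subunit Ska2 at 15.2 ± 0.953, the CCAN subunit Cenpt at 13.9 ± 2.06, the mitotic checkpoint protein Bub3 at 12.4 ± 1.27 and Hjurp at 10.9 ± 1.22. From Ska2 down to Hjurp, neighbours in this order differed by less than the sum of their SDs. Most microtubule-binding and checkpoint members stood far lower, such as Ndc80 at 1.93 ± 1.17, Ttk at 1.12 ± 0.610 and Knl1 at 0.615 ± 0.327 CPM per kb, and Nsl1 was lowest at 0.324 ± 0.0430. In the GapmeR controls of run 2 the order differed at the top: Hjurp led with 36.4 ± 6.85 CPM per kb (n = 2), above Zwint at 19.6 ± 2.56. Levels of different runs were scaled apart and were not tested against each other.

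**Figure D1:**
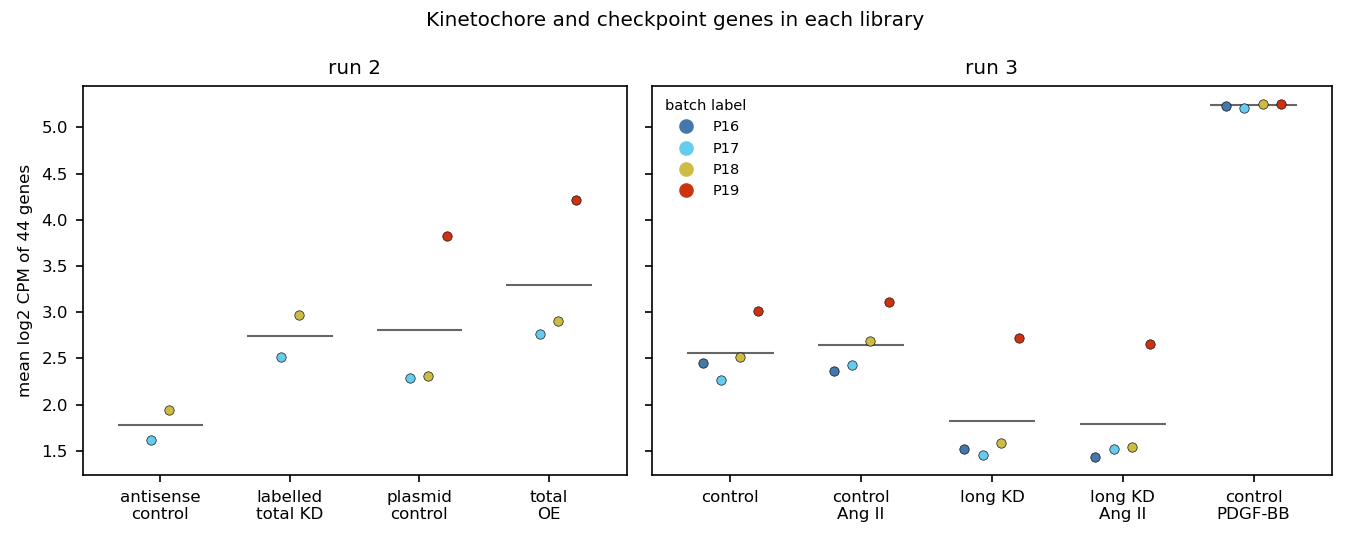
Mean log2 CPM of the 44 members in each library (vertical axis), by group (horizontal axis), with run 2 on the left and run 3 on the right, 1 point per library coloured by the batch in the labels, and a line at the group mean (KD, knockdown; OE, overexpression). The PDGF-BB libraries sit between 5.21 and 5.26, above every other library, and in every other group that has a P19 library, that library is the highest.

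PDGF-BB raised nearly the whole set. In control cells, 43 of the 44 members rose with PDGF-BB, where 43.6% of all 15103 genes were called and 23.6% were called higher (edgeR adjusted p under 0.05). All 44 had an unadjusted p under 0.05, against 50.7% of all genes. The median log2 fold change was 2.96 over the members and -0.02 over all genes. For 43 members every PDGF-BB library lay above every untreated library, against 22.7% of all genes, and all 44 were higher in each of the 4 batches, against 32.2%. The mean log2 CPM of the members was 2.45, 2.27, 2.51 and 3.01 in the untreated controls and 5.24, 5.21, 5.26 and 5.25 with PDGF-BB. Beside this, the sum of the 8 smooth muscle markers was lower with PDGF-BB, at 196 to 219 CPM against 242 to 276 CPM untreated, as was that of the 5 endothelial markers, at 0.356 to 1.05 against 1.25 to 2.65 CPM, while that of the 4 epithelial markers was higher, at 157 to 199 against 97.6 to 129 CPM. Only 2 of the 5 endothelial and 2 of the 4 epithelial markers passed the filter on low counts. Cdh5, Tek and Epcam were at 3 counts or fewer in every PDGF-BB library, and Krt18 in every untreated control. Over all genes, 22.7% lay wholly higher with PDGF-BB and 18% wholly lower. Fibroblast and macrophage sums overlapped, and the part of these markers in the result was not tested. No knockdown cells received PDGF-BB, so its effect under a CASC15 knockdown was not measured.

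Of the centromere histone and its loaders, all 4 rose. Cenpa stood at 6.30, 5.31, 6.73 and 8.30 CPM untreated and at 77.8, 71.7, 73.8 and 58.8 with PDGF-BB, a log2 fold change of 3.40 (SE 0.24) with an edgeR adjusted p of 2.26e-09. Its chaperone Hjurp went from 49.4, 54.1, 61.7 and 48.8 to 228, 207, 219.8 and 172 CPM (log2 fold change 1.95 (SE 0.19), edgeR adjusted p = 1.71e-07). In both genes the groups were far apart, and in both the lowest PDGF-BB library was that of batch P19. The Mis18 partners Mis18a and Oip5 had log2 fold changes of 1.40 and 2.67.

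All 11 CCAN subunits rose, with a median log2 fold change of 2.67. Cenpk, a subunit that helps to join the inner and outer kinetochore, stood at 2.14, 2.82, 2.99 and 3.52 CPM untreated and at 14.1, 13.8, 16.01 and 15.8 with PDGF-BB (log2 fold change 2.37 (SE 0.26)). Cenpm had the largest change of the network, 3.69, and Cenpt the smallest, 0.55. Cenpt was also the most abundant CCAN member per kb of exon in untreated cells.

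Of the 9 KMN members, 8 rose, with a median of 3.42. Ndc80, which grips the microtubule, went from 3.82, 2.17, 3.04 and 7.96 to 45.5, 46.8, 49.9 and 48.1 CPM (log2 fold change 3.45 (SE 0.69)). Knl1, the scaffold that checkpoint proteins dock on, went from 3.44, 3.52, 4.69 and 9.35 to 60.6, 62.6, 66.01 and 64.6 CPM (3.57 (SE 0.66)). Both stayed under 10 CPM in every untreated control library, of which that of batch P19 was the highest. The exception was the Mis12 complex subunit Dsn1, at 22.1, 23.4, 19.6 and 19.5 CPM untreated and 25.1, 25.4, 23.02 and 23.6 with PDGF-BB. Its groups overlapped, its log2 fold change was 0.20 (SE 0.10), and its edgeR adjusted p was 0.0970, or 0.0245 with the batch as a replicate block. Zwint, already the most abundant member per kb of exon, had a log2 fold change of 0.56.

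All 8 members of the corona, the motor and the SKA complex rose, with a median of 3.12. The large coiled-coil protein Cenpf stood at 10.8, 10.3, 12.5 and 25.8 CPM untreated and at 183, 172, 178 and 154 with PDGF-BB (log2 fold change 3.51 (SE 0.76), edgeR adjusted p = 0.00140). Ska1, which tracks microtubule ends, had the largest change of all 44 members, 3.98 (SE 0.68). Zw10, which also works in membrane traffic between mitoses, stood at 21.2, 21.3, 21.99 and 18.4 and 37.5, 33.9, 34.8 and 36.3 CPM, a change of 0.78 (SE 0.09) without overlap. The motor Cenpe had 3.21 and Ska2 0.57.

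All 6 checkpoint members and all 6 of the passenger complex and shugoshins rose, with medians of 3.11 and 3.17. The checkpoint kinase Bub1 and Aurora B (Aurkb) both had log2 fold changes of 3.92. Bub1b (BubR1) went from 5.50, 6.28, 7.33 and 12.7 to 87.7, 95.5, 93.8 and 95.7 CPM (3.54 (SE 0.43)), and Mad2l1, the protein that checkpoint signalling turns into an inhibitor of Cdc20, from 13.4, 13.5, 13.4 and 20.1 to 95.9, 103, 96.4 and 122 CPM (2.78 (SE 0.18)). Bub3, which has partners outside mitosis, changed least of the checkpoint members, from 50.4, 53.01, 55.5 and 63.5 to 90.9, 88.1, 88.9 and 99.7 CPM (0.72 (SE 0.08)). These groups did not overlap for any of the named genes. Aurkb stood at 3.82, 2.00, 5.49 and 8.19 CPM untreated and at 79.6, 73.1, 78.8 and 70.7 with PDGF-BB, and the cohesin protector Sgo1 at 2.65, 1.73, 3.24 and 5.01 and 31.02, 31.99, 29.9 and 32.7. The smallest change of the passenger and shugoshin members was that of the scaffold Incenp, 2.56.

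**Figure D2:**
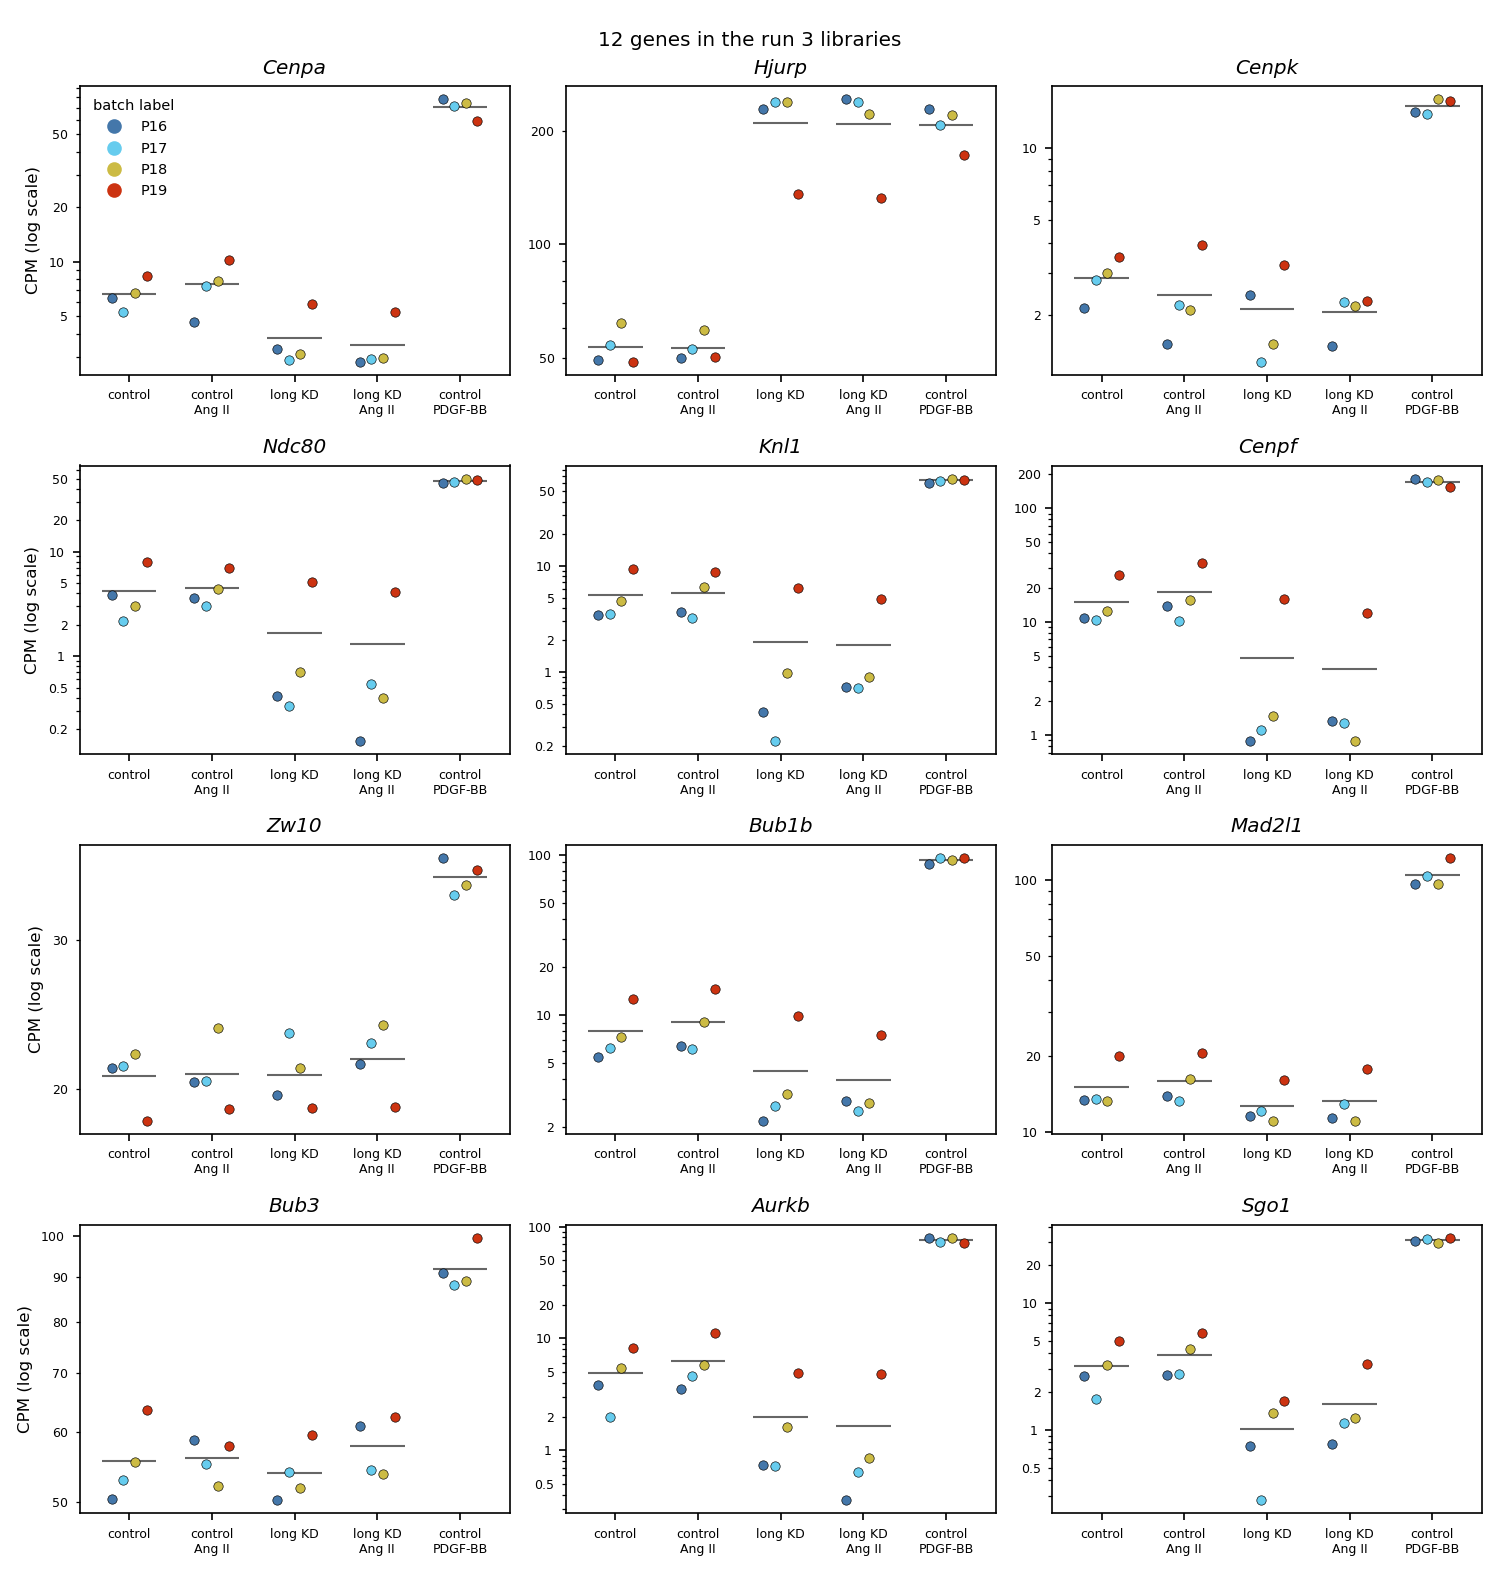
CPM on a log axis of 12 members in the 20 libraries of run 3, by group (KD, knockdown), 1 point per library coloured by batch, with a line at the group mean. With PDGF-BB the points of Cenpf lie between 154 and 183 CPM, and in the long CASC15 knockdown its P19 points stand apart from the others at 15.9 CPM untreated and 11.96 CPM with angiotensin II.

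Knockdown of long CASC15 went with lower levels of most kinetochore members and with higher levels of Hjurp and the checkpoint protein Mad1l1. The median log2 fold change of the members was -0.68 in untreated cells and -0.77 under angiotensin II, against 0.02 and 0.01 over all genes. By edgeR, 6 of 44 members passed in untreated cells (13.6%, against 25% of all genes) and 14 of 44 under angiotensin II (31.8%, against 26.7%). In untreated cells Hjurp and Mad1l1 rose, and Cenpa, Cenpn, Ska3 and Sgo1 fell, where 12.3% of all genes were called higher and 12.8% lower. At an unadjusted p under 0.05 there were 17 of 44 there, against 37.1% of all genes. Under angiotensin II 3 members rose (Hjurp, Mad1l1 and Dsn1) and 11 fell, against 13.4% of all genes higher and 13.3% lower. These counts depended on batch P19, whose members stood higher than those of the other batches. With the batch as a replicate block, 24 members passed in untreated cells (4 higher, 20 lower), against 40.6% of all genes (20% higher, 20.6% lower), and 30 under angiotensin II (4 higher, 26 lower), against 41.3% (20.4% and 20.9%). Without the P19 libraries, an alternative chosen after the data were seen, 30 passed (4 higher, 26 lower; 40% of all genes) and 33 passed (4 higher, 29 lower; 39.9%). The members called higher with the block were Hjurp, Mad1l1 and Zwint in both treatments, with Cenpq in untreated cells and Dsn1 under angiotensin II.

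Leaving out single libraries moved the counts as far. In untreated cells 5 to 26 members passed when 1 library was left out, and under angiotensin II 5 to 30. The highest counts came without the P19 knockdown library of the respective treatment, where 31.7% and 31.9% of all genes passed. The lowest count of 5 came, in untreated cells, without the P19 control or without any of the P16, P17 and P18 knockdown libraries, and under angiotensin II without the P19 control or without the P16 or P18 knockdown library. There, 8 passed without the P18 control or without the P17 knockdown library. In the fits with 5 members, 18.8% to 20.8% of all genes passed in untreated cells and 20% to 21.4% under angiotensin II, so that these counts lay below the share of all genes. Averaged over both treatments, which uses the same libraries again, 28 members passed (4 higher, 24 lower; 43.3% of all genes), and 32 with the replicate block (54.4%). Of the 20 members that the blocked fit called lower in untreated cells, all 20 were among the 26 called lower under angiotensin II (100% and 76.9% of each list). Over all genes, 20.6% and 20.9% were called lower, and how far those calls overlapped was not counted. The libraries of both arms are separate, but they share batches P16 to P19 and were fitted together.

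The median of the members was below 0 in every batch, with sizes that differed. The median log2 ratio of the members within batches P16 to P19 was -0.81, -0.86, -0.88 and -0.31 in untreated cells and -0.90, -0.79, -1.33 and -0.72 under angiotensin II. In untreated cells 27 members were lower in all 4 batches and 5 were higher, against 24.4% and 26% of all genes, and under angiotensin II 27 were lower and 6 higher, against 25.5% and 26.1%. The mean log2 CPM of the members was 1.52, 1.45, 1.59 and 2.73 in untreated knockdown cells and 1.43, 1.52, 1.54 and 2.66 in those with angiotensin II, against 2.45, 2.27, 2.51 and 3.01 and 2.37, 2.43, 2.69 and 3.11 in their controls. In all 4 groups the P19 library was the highest. The groups did not overlap for Hjurp and Mad1l1 (higher) and Sgo1 and Cenpn (lower) in untreated cells, against 12.2% of all genes in each direction. Under angiotensin II they did not overlap for the same 2 higher members and for Cenpp, Ska3, Sgo2a, Ttk, Cenph and Oip5 (lower), against 12.4% in each direction.

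Markers of other cell types moved beside the members. The 4 epithelial markers (Epcam, Cdh1, Krt8 and Krt18) summed to 36.6 to 69.9 CPM in untreated and 35.4 to 64.5 CPM in angiotensin II knockdown cells, against 97.6 to 129 and 104 to 128 in the controls, and to 157 to 199 CPM with PDGF-BB. Epcam and Krt18 were at 3 counts or fewer in every knockdown library. The 8 smooth muscle markers overlapped between untreated knockdown (231 to 329 CPM) and control cells (242 to 276 CPM). The 5 endothelial markers summed to 2.24 to 4.16 CPM in angiotensin II knockdown cells against 0.863 to 2.22 CPM in their controls, without overlap, and overlapped in untreated cells, at 1.91 to 3.78 against 1.25 to 2.65 CPM. Cdh5 was at 3 counts or fewer in all of these libraries. Smooth muscle sums under angiotensin II overlapped, as did fibroblast and macrophage sums in both treatments. Their part in the members' values was not tested.

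**Figure D3:**
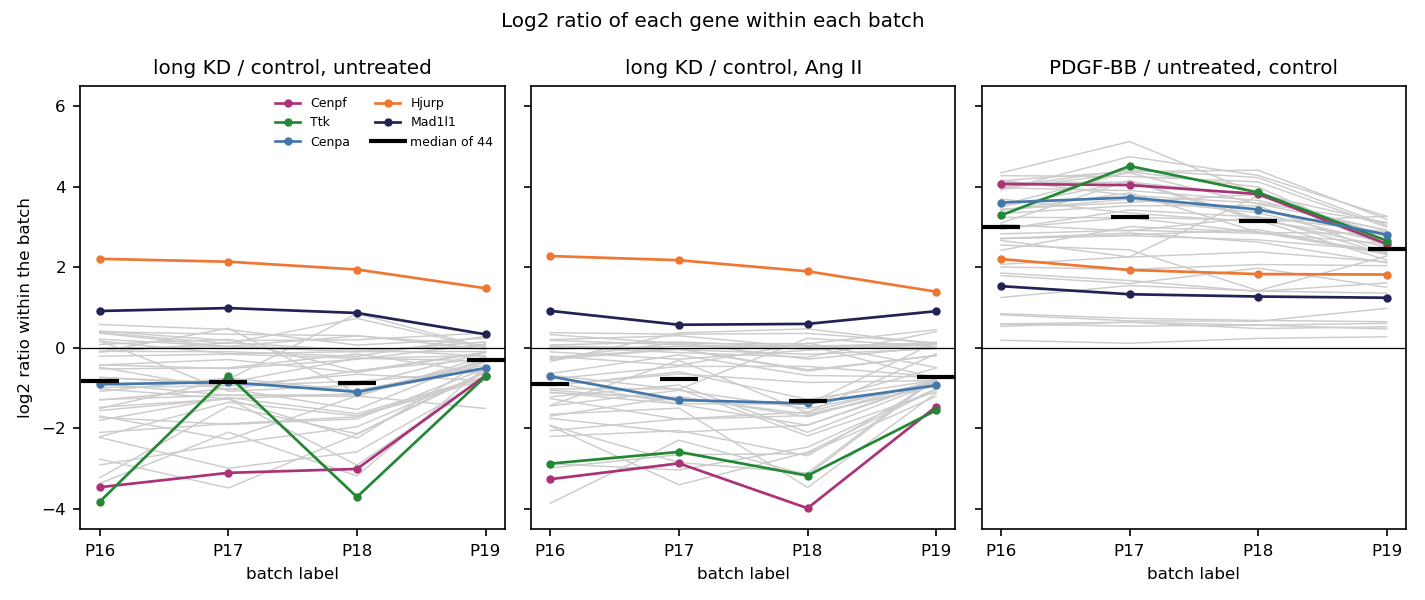
Log2 ratio within each batch P16 to P19 (horizontal axis) of long CASC15 knockdown to control, untreated and with angiotensin II, and of PDGF-BB to untreated controls, with 1 line per member (5 named ones coloured, lines only joining the values of 1 gene) and black bars at the median of the 44. The knockdown medians in untreated cells are -0.81, -0.86, -0.88 and -0.31, so that the P19 pair lies nearest to 0.

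Cenpa and its chaperone Hjurp moved in opposite directions under the knockdown. Cenpa stood at 3.32, 2.89, 3.10 and 5.84 CPM in untreated and 2.82, 2.91, 2.94 and 5.28 CPM in angiotensin II knockdown cells, against 6.30, 5.31, 6.73 and 8.30 and 4.68, 7.30, 7.83 and 10.2 in the controls. Its log2 fold changes were -0.82 (SE 0.25) and -1.10 (SE 0.25), with edgeR adjusted p of 0.0204 and 0.00336. In each batch the knockdown library was the lower one in untreated cells (-0.91, -0.85, -1.09 and -0.50 for P16 to P19), and the groups overlapped only through the P19 knockdown library.

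Hjurp stood at 229, 239, 238 and 136 CPM in untreated and 243, 239, 221 and 132 CPM in angiotensin II knockdown cells, against 49.4, 54.1, 61.7 and 48.8 and 49.9, 52.8, 59.2 and 50.3 in the controls. The log2 fold changes were 1.98 (SE 0.19) and 1.98 (SE 0.19), with edgeR adjusted p of 5.08e-07 and 5.21e-07. All 8 knockdown libraries lay above all 8 controls, and the P19 knockdown library was the lowest of its group in both treatments. PDGF-BB brought control cells to 172 to 228 CPM, a range that overlaps that of the knockdown, and both comparisons share their untreated controls. The GapmeR controls of run 2 stood at 154 and 202 CPM, far above those of run 3, in a run that was scaled apart. With Hjurp counted in, the summed CPM of all members was higher in the untreated knockdown (611, 606, 617 and 657) than in its control (467, 464, 506 and 602), while their mean on the log2 scale was lower.

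Mroh2a, a neighbour of Hjurp in the GENCODE M21 annotation and looked at because of that, moved with it in run 3. It stood at 16.02, 18.9, 19.2 and 8.86 CPM in untreated knockdown cells against 3.95, 5.20, 4.39 and 3.28 in the controls (log2 fold change 1.91 (SE 0.24), edgeR adjusted p = 8.54e-06), and had its lowest knockdown value in batch P19 as Hjurp did. In run 2 the neighbours parted. In the libraries labelled total CASC15 knockdown, Mroh2a stood at 5.92 and 10.48 CPM against 0.535 and 0.889, while Hjurp stood at 119 and 118 against 154 and 202. Whether reads of one gene were counted for the other was not tested.

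Mad1l1, which brings Mad2 to unattached kinetochores, stood at 15.4, 17.9, 16.5 and 14.2 CPM in untreated and 18.02, 15.2, 16.6 and 18.7 CPM in angiotensin II knockdown cells, against 8.11, 8.99, 9.03 and 11.2 and 9.49, 10.2, 10.98 and 9.93 in the controls. Its log2 fold changes were 0.77 (SE 0.11) and 0.76 (SE 0.11), with edgeR adjusted p of 2.6e-05 and 3.39e-05. All knockdown libraries were above all controls of their treatment, and the GapmeR controls of run 2 stood at 18.5 and 17.9 CPM. Mad1l1 overlaps the antisense gene Gm16121 on the opposite strand, and the strand setting of the counting is not given in the sources used here, so the reads of both cannot be told apart. The same limit holds for 12 other members with an exon on the opposite strand of another gene: Cdca8, Cenpk, Cenpp, Cenpq, Cenpt, Cenpu, Knstrn, Oip5, Sgo2a, Ska2, Ska3 and Zwilch.

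**Figure D4:**
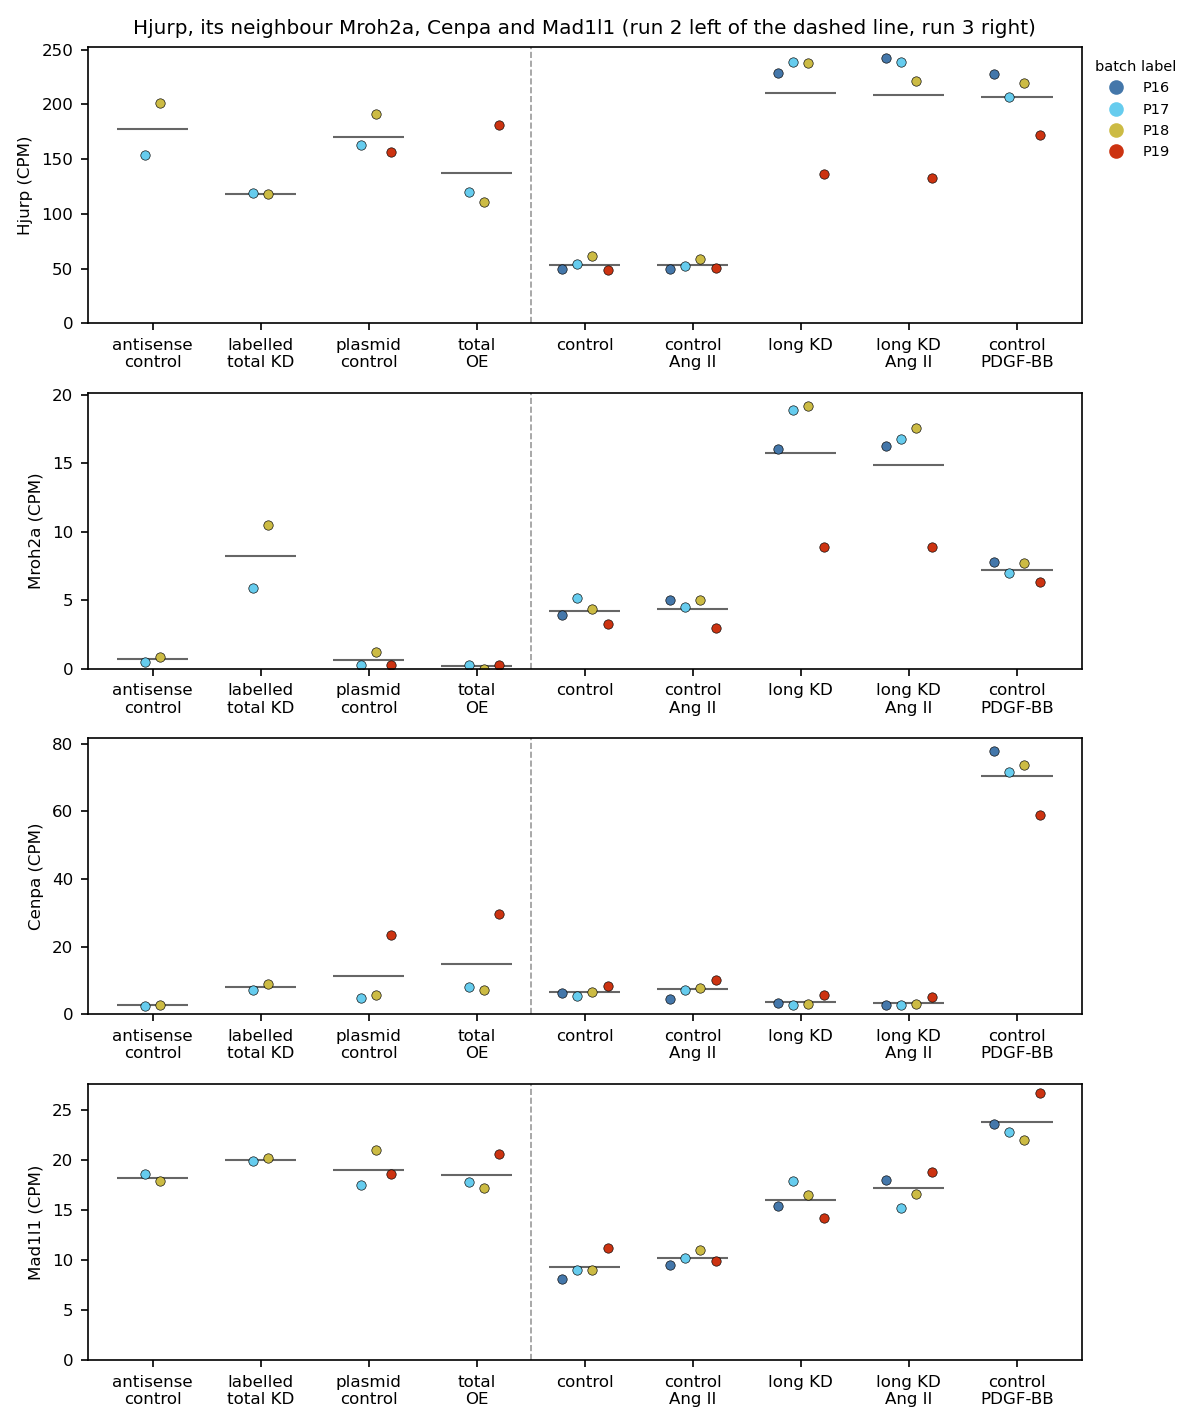
CPM of Hjurp, Mroh2a, Cenpa and Mad1l1 (linear axes from 0) in every library of run 2 (left of the dashed line) and run 3 (right), by group, 1 point per library coloured by batch, with a line at the group mean. Hjurp and Mad1l1 are higher in all knockdown and PDGF-BB libraries of run 3 than in any untreated or angiotensin II control, whereas Cenpa is highest with PDGF-BB and lies at 2.82 to 5.84 CPM under the long knockdown.

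Of the 11 CCAN subunits, Cenpn fell in untreated knockdown cells (log2 fold change -0.83 (SE 0.24), edgeR adjusted p = 0.0147), from 2.77, 2.65, 2.54 and 3.62 to 1.64, 1.33, 1.58 and 2.02 CPM, and 3 (Cenph, Cenpm and Cenpp) fell under angiotensin II. With the replicate block, 1 rose and 4 fell in untreated cells, and 5 fell under angiotensin II. Cenpm had log2 fold changes of -1.05 and -1.67, of which the untreated one passed only with the block or without P19. Cenpk stood at 2.43, 1.28, 1.52 and 3.24 CPM in untreated knockdown cells against 2.14, 2.82, 2.99 and 3.52, and its changes of -0.44 and -0.24 passed neither there, nor with the block, nor without P19. Cenpt (-0.04 and 0.00) and Cenpl (0.05 and -0.10) lay near 0.

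Among the 9 KMN members none passed in untreated cells, and Dsn1 rose under angiotensin II (log2 fold change 0.31 (SE 0.10), edgeR adjusted p = 0.0233). With the replicate block, 1 rose and 3 fell in untreated cells, and 2 rose and 5 fell under angiotensin II. Ndc80 stood at 0.420, 0.334, 0.707 and 5.15 CPM in untreated knockdown cells and 0.154, 0.540, 0.399 and 4.13 CPM with angiotensin II, against 3.82, 2.17, 3.04 and 7.96 and 3.61, 3.04, 4.38 and 7.03 in the controls. The 3 knockdown libraries of P16 to P18 were under 1 CPM and that of P19 lay within the range of the controls. Its untreated log2 fold change was -1.40 (SE 0.77) with an edgeR adjusted p of 0.204, or 0.0605 with the block, and -2.64 with 5.42e-08 without P19. Knl1, at 0.420, 0.223, 0.979 and 6.10 CPM, had -1.47 (0.158 in edgeR), and with the block -1.60 (0.0346). Zwint went the other way, with 0.29 and 0.25 in the blocked fits, both called.

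Of the 8 corona, motor and SKA members, Ska3 fell in untreated cells (-1.33 (SE 0.32), edgeR adjusted p = 0.00473), from 3.99, 2.49, 3.09 and 4.17 to 1.07, 1.00, 0.924 and 2.49 CPM. Cenpf stood at 0.887, 1.11, 1.47 and 15.9 CPM in untreated and 1.33, 1.29, 0.898 and 11.96 CPM in angiotensin II knockdown cells, against 10.8, 10.3, 12.5 and 25.8 and 13.7, 10.1, 15.7 and 33.05 in the controls. The P19 knockdown libraries lay above the P16 to P18 controls in untreated cells and among the controls with angiotensin II. The log2 fold change of Cenpf was -1.64 (SE 0.81) in untreated cells, with an edgeR adjusted p of 0.157, or 0.0314 with the replicate block. Without P19 it was -3.29 with an adjusted p of 6.53e-12. Within batches P16 to P19 it was -3.46, -3.10, -3.01 and -0.69. Zw10, at 19.7, 23.3, 21.1 and 19 CPM against 21.2, 21.3, 21.99 and 18.4, had log2 fold changes of 0.01 and 0.06.

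Of the 6 checkpoint members, Mad1l1 rose in both treatments and the kinase Ttk (Mps1) fell under angiotensin II. Ttk stood at 0.205, 0.324, 0.349 and 2.14 CPM in angiotensin II knockdown cells against 2.15, 2.45, 3.97 and 6.47 in their controls, a log2 fold change of -2.28 (SE 0.78) with an edgeR adjusted p of 0.0385, and its groups did not overlap, the highest knockdown value being just under the lowest control. In untreated cells it had -1.58, with an adjusted p of 0.127 and, with the block, 0.0421. Bub1b stood at 2.19, 2.73, 3.21 and 9.87 and 2.93, 2.54, 2.85 and 7.47 CPM in the knockdown groups, against 5.50, 6.28, 7.33 and 12.7 and 6.46, 6.13, 9.11 and 14.5. Its log2 fold changes of -0.84 and -1.18 passed only with the block or without P19. Mad2l1, at 11.6, 12.1, 11.1 and 16.1 CPM, had -0.25 and -0.26, neither of which passed unblocked while both did with the block, and Bub3, at 50.3, 54.1, 51.9 and 59.6 CPM, had -0.04 and 0.05.

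Of the passenger complex and the shugoshins, Sgo1 fell in untreated knockdown cells, and Sgo1, Sgo2a and Cdca8 fell under angiotensin II. Sgo1 stood at 0.747, 0.278, 1.36 and 1.70 CPM in untreated and 0.770, 1.13, 1.25 and 3.29 CPM in angiotensin II knockdown cells, against 2.65, 1.73, 3.24 and 5.01 in the untreated controls, a log2 fold change of -1.65 (SE 0.46) (edgeR adjusted p = 0.0127). Its P19 knockdown library also stayed under every untreated control, which among the members that fell held only for Sgo1 and Cenpn. Aurkb stood at 0.747, 0.723, 1.63 and 4.88 and 0.359, 0.647, 0.849 and 4.78 CPM. Its log2 fold changes were -1.32 and -1.89, with edgeR adjusted p of 0.164 in untreated cells, 0.0545 with the block and 0.00184 without P19. With the block 4 of the 6 members fell in untreated cells and 5 under angiotensin II. Without P19 all 6 fell in both. Incenp, with -0.34 and -0.26, passed only without P19.

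**Figure D5:**
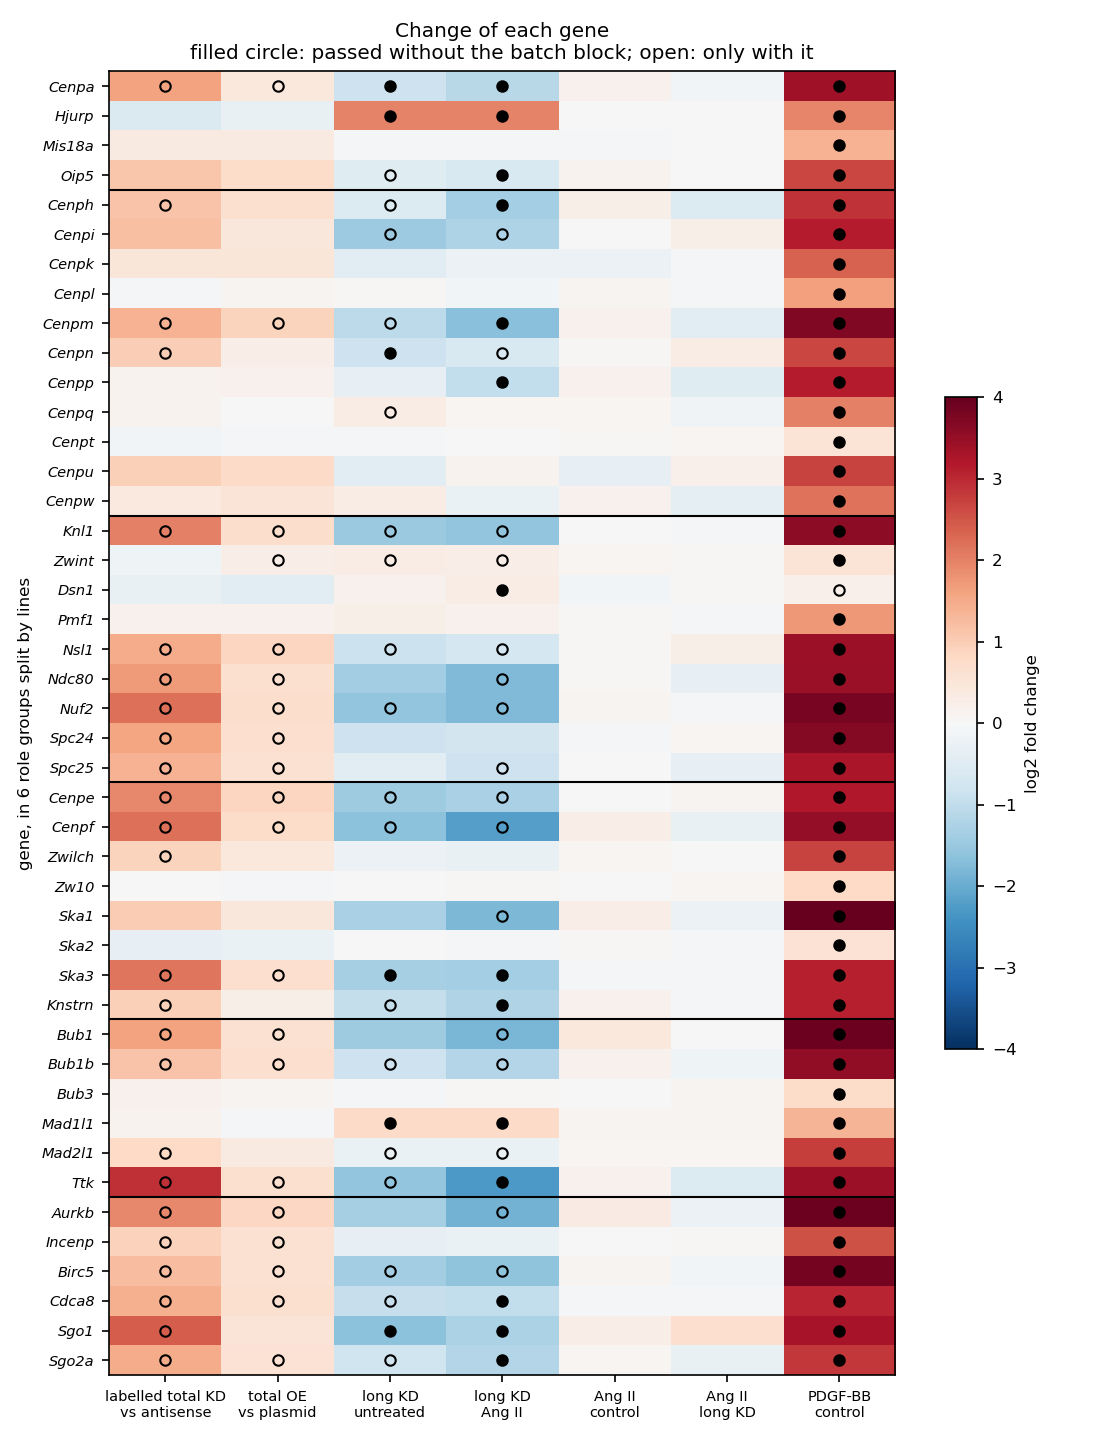
Heat map of the log2 fold change of each of the 44 members (rows, by role) in 7 comparisons (columns; KD, knockdown; OE, overexpression), where a filled circle marks an edgeR adjusted p under 0.05 without the batch block and an open circle one reached only with it. PDGF-BB values run from 0.20 for Dsn1 to 3.98 for Ska1, and both angiotensin II columns hold no circle.

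Angiotensin II changed no member that could be called. In control cells, in knockdown cells and for the difference between both responses, 0 of 44 members and 0% of all genes passed in edgeR. At an unadjusted p under 0.05 there were 0 members in each (1.03%, 1.15% and 1.1% of all genes), and 0, 1 and 1 (Cenph) with the replicate block (1.73%, 2.15% and 2.16%). DESeq2 called 0, with no adjusted p for 6 members. The median log2 fold change of the members was 0.08 in control and -0.04 in knockdown cells. Cenpf, for example, stood at 13.7, 10.1, 15.7 and 33.05 CPM with angiotensin II and 10.8, 10.3, 12.5 and 25.8 without, and Hjurp at 49.9, 52.8, 59.2 and 50.3 and 49.4, 54.1, 61.7 and 48.8.

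In cells overexpressing total CASC15 the members lay above their plasmid controls by a median of 0.50 on the log2 scale, with no call in the unblocked fit. None of the 44 passed in edgeR (1.65% of all genes did), where 3 had an unadjusted p under 0.05, against 15% of all genes, and DESeq2 called 0 (5.26% of all genes). With the batch as a replicate block, 20 members rose and none fell (17.7% of all genes, 9.4% higher). Without P19, 1 member passed, Hjurp, which was lower (5.57% of all genes passed), and with the block as well 15 did (13 higher, and Hjurp and Dsn1 lower; 17.1% of all genes). In all 3 batches 34 members were higher and 2 lower, against 26.9% of all genes higher and 25% lower. The mean log2 CPM of the members was 2.29, 2.31 and 3.83 in the plasmid controls and 2.76, 2.91 and 4.22 with CASC15, so that P19 libraries of both groups stood above the rest. The epithelial markers moved with the members here too, from 44.6 to 64.1 CPM in sum with the control plasmid to 66.4 to 150.2 CPM with CASC15, without overlap, with 2 of the 4 at 3 counts or fewer in both groups. The summed smooth muscle, endothelial, macrophage and fibroblast markers overlapped between these groups. The part of these markers was not tested.

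By role, the blocked fit called higher 1 of the 4 centromere histone and loading members (Cenpa), 1 of 11 CCAN subunits (Cenpm), 7 of 9 KMN members, 3 of 8 corona members, 3 of 6 checkpoint members and 5 of 6 passenger and shugoshin members, where 9.4% of all genes were called higher, a share that the CCAN count (9.09%) does not exceed. Differences between the roles were not tested. Of the 11 CCAN subunits, 7 were higher in all 3 batches. Bub1b stood at 5.86, 7.15 and 33.1 CPM with the control plasmid and 12.5, 14.7 and 45.7 with CASC15. Cenpa stood at 4.86, 5.67 and 23.4 and 8.04, 7.24 and 29.8 CPM, with a blocked log2 fold change of 0.47 (SE 0.14) (edgeR adjusted p = 0.0355). Aurkb stood at 2.34, 3.03 and 20.3 and 6.34, 7.89 and 31.4 CPM, with 1.08 (SE 0.26) (0.0204 in edgeR). Zwint, at 80.2, 79.01 and 88.8 against 95.7, 99.5 and 103 CPM, was the member whose overexpression libraries all lay above all controls, and for Dsn1 they all lay below (9.61% and 8.42% of all genes did so in each direction). Hjurp had -0.34 with the block, which did not pass. It stood at 163, 192 and 157 and 120.2, 111 and 181 CPM, lower in P17 and P18 and higher in P19.

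In the libraries labelled total CASC15 knockdown, most members were also higher than in their control, by a median of 1.06, with the target itself not lower. None passed in edgeR (2.07% of all genes did), where 4 had an unadjusted p under 0.05, against 12.9% of all genes, and DESeq2 called 0 (4.68% of all genes). With the replicate block 25 rose and none fell (14.4% of all genes, 8.76% higher), and without P19, which holds none of these libraries but enters the run's estimate of the spread, 9 passed (8 higher, 1 lower; 6.86% of all genes). In 33 members both libraries lay above both controls and in 3 below, against 26.4% and 23% of all genes. Cenpf stood at 7.42 and 12.2 CPM against 1.16 and 3.16 in the controls, Aurkb at 5.17 and 7.84 against 0.713 and 2.77, and Sgo1 at 2.41 and 4.12 against 0.579 and 0.642. The largest log2 fold change with the block was that of Ttk, 2.92 (SE 0.38), at 2.46 and 4.48 against 0.312 and 0.593 CPM. Hjurp was lower in both, at 119 and 118 against 154 and 202 CPM (-0.59 (SE 0.23)), and passed without P19 but not in the blocked or unblocked fit of all libraries.

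The summed markers of all 5 cell types listed did not overlap between this group and its GapmeR controls. With 2 libraries on each side, 26.4% of all genes lay wholly higher and 23% wholly lower in the same way. The sum of the macrophage and leukocyte markers in both libraries with that label was 16.9 to 20.5 CPM, and it was 0.401 to 1.75 CPM in every other library. Of the 5 markers, Cd68 made up most of this, at 15.6 and 15.9 against 0.267 and 0.593 CPM. The remaining expressed marker, Csf1r, exceeded 3 counts in this group and stayed at 3 counts or fewer in the GapmeR controls. Ptprc, Adgre1 and Cd3e were at 3 counts or fewer in every library. The 4 epithelial markers summed to 72.5 to 95.5 CPM against 44.2 to 45.1 in the GapmeR controls, with 2 of them at 3 counts or fewer in both groups, and the 5 endothelial markers to 6.02 to 9.99 against 2.81 to 3.90 CPM, with Cdh5 at 3 counts or fewer throughout. Smooth muscle sums stood only just above their controls, at 195.6 to 214 against 175 to 195.4 CPM. Fibroblast sums were lower, at 2606 to 2745 against 2927 to 2962 CPM. The part of these markers in the result was not tested. Of the 25 members called higher here in the blocked fits and the 20 called higher with overexpression, 19 were the same (76% and 95% of each list). Over all genes, 8.76% and 9.4% were called higher, and how far those calls overlapped was not counted. These comparisons share no control library, but they share batches P17 and P18 and were fitted together.

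The control plasmid and the control GapmeR of run 2 differed for these genes as well. Members were higher with the plasmid by a median of 1.26, or 0.54 with the replicate block and 0.45 without P19, a batch that holds plasmid but no GapmeR libraries of run 2. None passed in edgeR (1.18% of all genes did), where 10 had an unadjusted p under 0.05 (9.41% of all genes), DESeq2 called 3 (2.26%), and 8 rose with the block (2.99% of all genes, 2.36% higher): Cenpa, Nuf2, Cenpe, Cenpf, Bub1, Bub1b, Ttk and Sgo2a, with log2 fold changes from 0.85 to 1.95. The plasmid controls and the GapmeR controls also enter the overexpression and the labelled knockdown comparisons, so that these values are not independent.

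The batch named in the labels moved the members in both runs. With group in the model, the batch term was called for 36 of 44 members in run 2 (33.2% of all genes) and for 24 of 44 in run 3 (38.2%). The run 3 count was 11 (34.2% of all genes) without the P19 library of the angiotensin II controls, which lies below the share of all genes. It was 33 (35.8% of all genes) without the P19 library of the PDGF-BB group. Relative to the mean of the batches, P19 stood higher by a median of 1.11 on the log2 scale in run 2 (43 of 44 members above 0) and of 0.38 in run 3 (39 of 44), with all-gene medians near 0. In run 2 the P19 value was 1.68 for Aurkb, 1.60 for Sgo1 and -0.09 for Dsn1. In run 3 it was highest for Cenpf, 1.10, followed by Ska1 with 1.08 and Ndc80 with 1.06, and lowest for Hjurp, -0.34. With PDGF-BB the batches lay close together: Ndc80 stood at 45.5, 46.8, 49.9 and 48.1 CPM there.

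Other genes of the pathway, taken from lists kept apart from the 44, moved in part with them. For PDGF-BB the counts read against 23.6% of all genes called higher and 20% lower, and for the untreated knockdown against 12.3% higher and 12.8% lower, or 20% and 20.6% with the replicate block. Of 13 checkpoint regulators and mitotic kinases, 12 rose with PDGF-BB and the separase inhibitor Pttg1 fell (-0.27). Under the long CASC15 knockdown 0 rose and 4 fell in untreated cells, and 0 rose and 11 fell with the replicate block, and the checkpoint remodelling enzyme Trip13 was among those called without it (log2 fold change -0.81, edgeR adjusted p = 0.000380). Of 11 further centromere and kinetochore subunits, 9 rose with PDGF-BB with a median of 0.63, while 2 rose and 2 fell under the untreated knockdown, among them Cenpo with 0.47, which rose.

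Cohesin and the anaphase-promoting complex, on which the checkpoint acts, were mixed. Under the untreated knockdown, 30.8% of the cohesin and 35.3% of the anaphase-promoting complex genes were called, shares not far from the 25% of all genes. Of 13 cohesin genes, 9 rose and 1 fell with PDGF-BB (Stag2, -0.23), and under the untreated knockdown 3 rose, with Stag1 at 0.40, and 1 fell (Pds5b, -0.21). Of 17 genes of the anaphase-promoting complex and its E2 enzymes, 11 rose with PDGF-BB, with Ube2s at 1.15, and under the untreated knockdown 5 rose, with Anapc11 at 0.45, and 1 fell (Cdc27, -0.27). Of 12 cell cycle reference genes, 11 rose with PDGF-BB. In the untreated knockdown 1 fell without the block (Top2a, -1.33) and 7 with it, and 1 rose (the cell cycle inhibitor Cdkn1b, 0.32). The division marker Mki67 stood at 1.68, 3.56, 3.48 and 31.5 CPM there against 22.3, 14.5, 24.1 and 48.8 in the controls, again with P19 highest in each group. These cell cycle genes moved beside the kinetochore members, and their part in the members' values was not tested.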

How the data were processed

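The authors deposited RSEM expected counts, 1 value per gene and library, without scaling to depth. The submitters' processing notes list STAR 2.7.11b, RSEM 1.3.1 and the builds GRCm39 and mm10, without saying which build gave the table. The strand setting of the counting is not given in the sources used here. Values were rounded to whole numbers. A GENCODE M21 annotation gave symbols to 51486 of 78334 gene IDs, which held 98.7% of all counts, and exon lengths. The growth protocol speaks of mouse and rat cells, and the cell source was not tested. Some titles raise the number in the target's name from library to library, and groups were taken from the library names instead.

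Each run was fitted apart in edgeR 4.0.16 (R 4.3.3, limma 3.58.1): filterByExpr (minimum count 10, minimum total 15), TMM scaling, robust quasi-likelihood fit with 1 coefficient per group and quasi-likelihood F tests. A gene was called at a Benjamini-Hochberg adjusted p under 0.05 over all genes of the run. CPM are TMM-scaled. A level of 3 counts or fewer was taken as the floor. Groups share batch names, which the labels give as P16 to P19. Deviations of libraries from their group means correlated at a mean r of 0.23 in run 2 and 0.20 in run 3 for the same batch name. Other pairs gave -0.12 and -0.06, values below 0 that follow in part from the centring on group means. Batch therefore entered as a replicate block in an alternative fit. Further alternatives were DESeq2 1.42.0, RLE scaling, no filter, a filter at a mean CPM of 1 in its place, fits of only the groups compared and leaving out each library. Fits without batch P19 and batch terms without the PDGF-BB libraries were added after the data were seen. The members and lists were chosen with earlier results of these data known. Every member could be named, library values were printed for 1 to 3 members per role and for those with the largest or opposite changes. The fits were also run on simulated counts, which held no batch effect in the group comparisons. Figures were drawn with matplotlib 3.10.9.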

Additional observations from a re-analysis of the deposited data

Results flagged for a closer look

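Single libraries stood apart in 17 of 65 series of 4 libraries (12 members and the mean of all members, over 5 groups of run 3), where the gap to the nearest library made up a larger part of the group's range than Dixon's critical value. Chance alone gives this in about 1 in 20 series, and the series share libraries. In 16 of the 17 the library was that of batch P19. Its value was high for the mean log2 CPM of the members in the untreated long CASC15 knockdown (gap over range 0.892) and with angiotensin II (0.907). The same held for Cenpa (0.856 and 0.951), Ndc80 (0.922 and 0.903), Knl1 (0.872 and 0.952), Cenpf (0.961 and 0.961) and Bub1b (0.868 and 0.921), each untreated first, and for Aurkb with angiotensin II (0.889).

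Hjurp was the exception in direction: its P19 library was low in the untreated knockdown, at 136 CPM against 229 to 239 CPM in the other batches (0.905). In untreated control cells the P19 library was high for Cenpf (0.859) and for Mad2l1 (0.975). The library of batch P16 was low for Cenpk in the angiotensin II knockdown (0.880), at 1.49 CPM against 2.20 to 2.29.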

How the results depend on the processing

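With the batch as a replicate block, 25 members passed for the libraries labelled total CASC15 knockdown, 20 for overexpression, 8 for plasmid against GapmeR control, and 24 and 30 for the long knockdown untreated and with angiotensin II (0, 0, 0, 6 and 14 without it), where 14.4%, 17.7%, 2.99%, 40.6% and 41.3% of all genes passed. It changed no other count by more than 1.5 times. Without batch P19 the counts were 9, 1, 0, 30 and 33 (6.86%, 5.57%, 1.06%, 40% and 39.9% of all genes), and 26, 15, 7, 30 and 33 with the block as well (15.8%, 17.1%, 2.77%, 42.2% and 42.1%). The plasmid control median fell from 1.26 to 0.54 with the block, 0.45 without P19 and 0.47 with both. No filter on low counts gave 22, 4 and 22 in run 2 (4.44%, 4.56% and 3.7% of all genes) and 5 for the angiotensin II knockdown (9.8%). Only the groups compared gave 9 for the labelled total knockdown (7.34%) and 9 for the angiotensin II knockdown (24%), and DESeq2 gave 3 for the plasmid control (2.26%). Leaving out 1 library gave 5 to 26 (untreated knockdown), 5 to 30 (angiotensin II knockdown), 23 to 34 (mean of both), 11 to 33 (batch term, run 3), 31 to 38 (batch term, run 2) and 43 (PDGF-BB). Fits that gave these lowest and highest counts called 20.8% and 31.7%, 21.4% and 31.9%, 39% and 46.5%, 34.2% and 35.8%, and 20.4% and 37.9% of all genes. For PDGF-BB the share was 36.5% to 43.1%. The lowest counts of both knockdowns and of the run 3 batch term lay below the share of all genes. The run 3 batch term also gave 32 without the PDGF-BB libraries (34.4% of all genes). No member that passed in the reported fits changed sign under these alternatives. The spread between libraries of a group (edgeR common estimate of the coefficient of variation) came to 0.232 (run 2) and 0.148 (run 3), and members under 1 CPM rest on few counts.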

Other observations

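Genes beside the 44 members moved in run 2 in both CASC15 comparisons once the batch was a replicate block, with 8.76% of all genes called higher in the labelled total knockdown and 9.4% with overexpression. In the libraries labelled total CASC15 knockdown, 9 of 13 checkpoint regulators and mitotic kinases rose, among them Cdc20, the target of the checkpoint, with a log2 fold change of 1.99 (SE 0.18), and 3 of 11 further kinetochore subunits, with the corona protein Kntc1 at 1.54. With overexpression 8 of the 13 rose, with the spindle factor Tpx2 at 0.90, and 1 of the 11, Kntc1 at 1.16, a share (9.09%) near that of all genes. Of 12 cell cycle reference genes, 9 rose and 1 fell in each comparison, and the one that fell was the inhibitor Cdkn1b, at -0.38 and -0.37. Anapc5, a scaffold subunit of the anaphase-promoting complex, was lower in both, at -0.48 and -0.35.

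In the angiotensin II arm of the long CASC15 knockdown, Kntc1 was lower by more than any called member (log2 fold change -2.81 (SE 0.72), edgeR adjusted p = 0.00876), whereas Anapc15, a subunit of the anaphase-promoting complex, was higher (1.16 (SE 0.14)). The cohesin loader Nipbl was higher and the cohesin partner Pds5b lower, at 0.28 and -0.24.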
